A study of Homo sapiens with 18 samples.

Results

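The genes described here are the 45 members of the ATP-binding cassette (ABC) transporter family in a read-count table of 18670 genes from 2 human monocytic leukaemia cell lines. They were taken by name, as every gene whose symbol begins with ABCA, ABCB, ABCC, ABCD, ABCE, ABCF or ABCG and a number, with pseudogenes and 1 hyphenated read-through symbol, ABCF2-H2BK1, left out. That gave 12 ABCA, 9 ABCB, 11 ABCC, 4 ABCD, 1 ABCE, 3 ABCF and 5 ABCG genes. TAP1 and TAP2, which load peptides onto MHC class I molecules, and the chloride channel CFTR are ABC proteins under other names and are mentioned where they bear on the family.

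RNA-seq was run on 18 libraries in 6 groups of 3. U937 cells carried a lentivirus for knockdown of S100A9 (shS100A9) or an empty vector (EV). THP-1 cells carried a lentivirus for overexpression of S100A9 (OE) or the empty vector, and each of those populations was sequenced after 1 µM Adavivint for 36 hours and without the drug. Adavivint is a small-molecule inhibitor of Wnt signalling that acts on CLK and DYRK kinases. All 6 groups were selected with puromycin (2 µg/mL), which was started at 48 hours and lasted 24 hours or longer. What the THP-1 cells without Adavivint received in its place is not stated. The replicates are not said to be separate cultures, so the p-values below measure the spread between these libraries, which may be technical. The series studies S100A9, a calcium-binding protein of myeloid cells, in relation to resistance to chemotherapy.

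ABC proteins bind and hydrolyse ATP, and most of them use that energy to move a substrate across a membrane. The ABCB, ABCC and ABCG subfamilies include the best-known drug efflux pumps, above all ABCB1 (P-glycoprotein), ABCC1 (MRP1) and ABCG2 (BCRP), whose presence on leukaemic blasts is a textbook marker of drug resistance. ABCA proteins and several ABCG proteins move lipids, ABCD proteins carry fatty acids into peroxisomes or cobalamin out of lysosomes, and ABCE and ABCF proteins lack membrane-spanning parts and work on ribosomes.

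Library totals ran between 38.4 and 84.4 M (mega) counts. S100A9 averaged 0.225 CPM (read counts per M library counts, scaled by TMM within each cell line) in shS100A9 cells and 6.14 CPM in U937 EV cells, and 107, 13.9, 28.1 and 6.38 CPM in OE with Adavivint, EV with Adavivint, OE and EV THP-1 cells. Of 12 monocytic genes, all were detected in every group. With Adavivint 4 of them were higher and 5 lower in OE cells and 5 higher and 5 lower in EV cells, with median log2 fold changes of -0.05 and 0.04 beside 0.04 and 0.06 for all genes. Among them CD14, a monocyte surface marker, averaged 21.5 CPM in OE cells with Adavivint and 0.356 CPM in OE cells without it, and 20.9 CPM in EV cells with Adavivint and 0.363 CPM in EV cells without it; it was singled out after its values were seen. Genes of the other cell types were low: their summed levels did not exceed 2.38 CPM for 6 erythroid genes, 1.42 CPM for 5 stromal genes, 1.06 CPM for 3 platelet genes and 0.264 CPM for 4 epithelial genes, with HBB, LUM, KRT19 and PPBP at 0 in 4 or more groups. The 4 lymphoid genes summed to between 41.9 and 133 CPM, most of it from NKG7, and MS4A1 was at 0 in 5 groups. The part of these genes in the results was not tested. Empty vector replicate 2 and shS100A9 replicate 3 of U937 stood apart from the other replicates of their groups. A chi-square per degree of freedom over all genes was 167 and 225 for the pairs with that shS100A9 library and 135 and 142 for the pairs with that empty vector library, against 7.18 to 37.2 for all other replicate pairs.

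Of the 45 members, 29 reached 1 CPM in at least 1 group, 21 reached it in every group, and 16 stayed below 1 CPM throughout. Per kilobase of exon, the scale on which genes can be compared with each other, ABCE1, ABCF1, ABCF2 and ABCB10 held the top 4 places in the 4 THP-1 groups and in U937 EV cells. ABCE1, which splits ribosomes after termination, had 16.0 ± 0.140, 14.8 ± 0.503, 36.2 ± 2.93 and 38.0 ± 3.60 CPM per kb in OE with Adavivint, EV with Adavivint, OE and EV THP-1 cells (SD, n = 3 each). ABCB10, a mitochondrial inner membrane transporter needed for haem synthesis, had 12.3 ± 0.786, 13.7 ± 0.191, 34.0 ± 2.56 and 40.9 ± 0.839 CPM per kb in the same order of groups. ABCB10 ranked 1 of 45 in THP-1 EV cells, where ABCE1 and ABCF1 lay less than their own SDs below it, and ranked 4 after Adavivint with either vector. By subfamily, the 3 ABCF genes summed to 64.3 ± 1.78, 64.6 ± 2.16, 66.1 ± 1.88 and 78.2 ± 12.3 CPM per kb, and the 5 ABCG genes to 0.480 ± 0.0654, 0.467 ± 0.0952, 0.197 ± 0.0443 and 0.133 ± 0.0705 CPM per kb, in OE with Adavivint, EV with Adavivint, OE and EV cells.

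**Figure D1:**
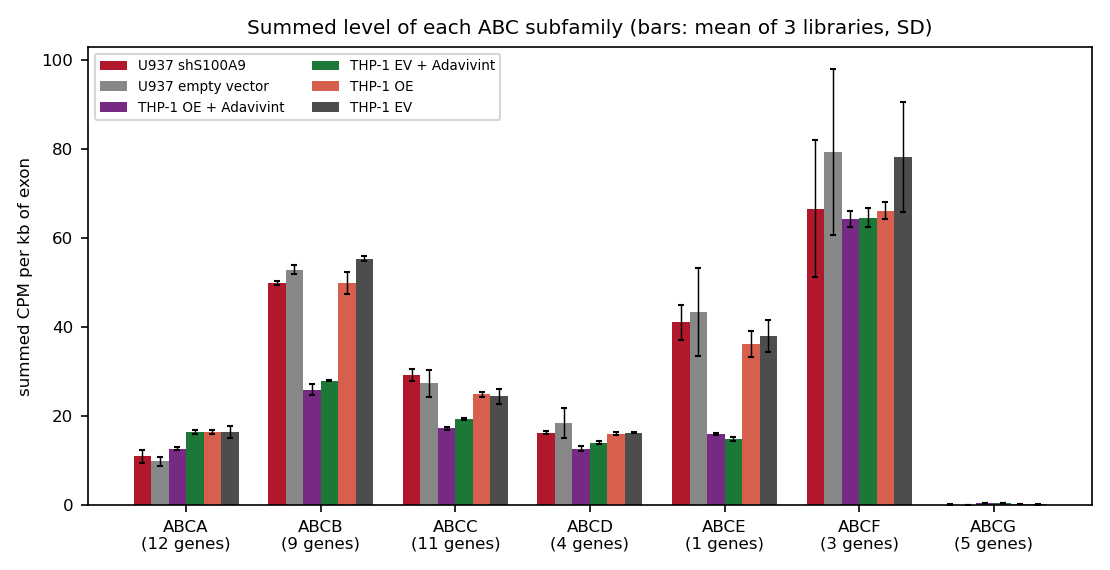
Summed level of each ABC subfamily (CPM per kb of exon) in the 6 groups; bars are means of 3 libraries and lines SDs. The ABCB and ABCE bars of both Adavivint groups are under the bars of all other groups, ABCF is at 64.3 CPM per kb or above in every group, and ABCG is close to the axis.

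**Figure D2:**
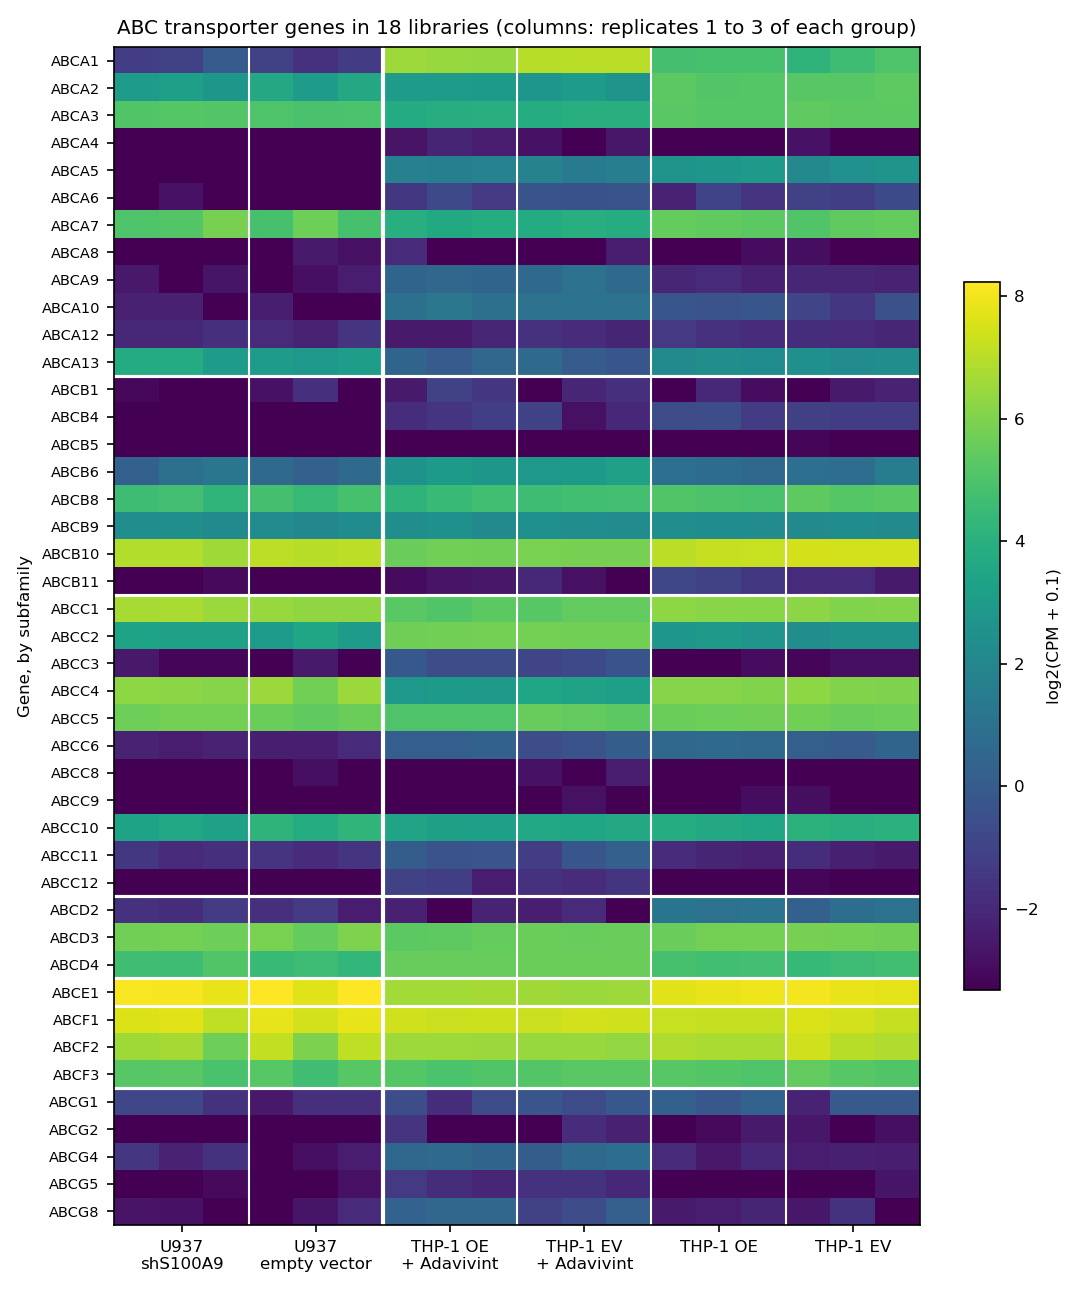
Level of ABC genes, log2(CPM + 0.1), in each of the 18 libraries; genes run down by subfamily and each group has 3 columns. ABCC2, ABCA1, ABCA9, ABCG4 and ABCG8 are brighter in the 6 Adavivint columns than in the 6 other THP-1 columns, and ABCC4, ABCA2, ABCA13 and ABCD2 are darker.

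Of the best-known drug efflux pumps, ABCB1 and ABCG2 were near the limit of detection. ABCC1 was not, and its levels are given further on. ABCB1 had 29, 15, 14 and 10 counts in OE with Adavivint, EV with Adavivint, OE and EV THP-1 cells, and 1 and 12 counts in shS100A9 and EV U937 cells. Its libraries held 0.0800, 0.389 and 0.250 CPM in OE cells with Adavivint, 0, 0.134 and 0.198 CPM in EV cells with Adavivint, 0, 0.142 and 0.0317 CPM in OE cells and 0, 0.0794 and 0.116 CPM in EV cells, and all 4 groups overlapped. The gene overlaps RUNDC3B on the opposite strand, and no source says whether the counting used strand. In U937, the ABCB1 counts give a ratio of 17.5 between EV and shS100A9 cells with a 95% exact interval of 2.58 to 747, which covers counting error only. The U937 EV libraries held 0.0486, 0.194 and 0 CPM of ABCB1. Most of the 12 counts were therefore in EV replicate 2, one of the libraries that stood apart, and the ratio rests mainly on it. ABCG2 had 9, 13, 7 and 6 counts in OE with Adavivint, EV with Adavivint, OE and EV THP-1 cells and none in the 6 U937 libraries, where the floor of 3 counts over a group corresponds to 0.0146 CPM in shS100A9 and 0.0213 CPM in EV cells. Those 2 genes and ABCA4, ABCA8, ABCB5, ABCC8 and ABCC9 were too low to be tested in any comparison, with at most 11 counts in any group for the other 5. CFTR had 10 counts in each Adavivint group and none elsewhere.

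Most calls in the family came with Adavivint. In OE cells, 12 members were higher and 20 lower with the drug out of 38 tested (edgeR quasi-likelihood test, Benjamini-Hochberg adjusted p below 0.05), against 84.7% of all 15403 genes tested, 43.4% higher and 41.3% lower. In EV cells, 12 were higher and 17 lower of 38, against 85.3% of all genes, 44.2% higher and 41.1% lower. The members' shares, 84.2% and 76.3%, did not exceed that background, so the account below is of which members moved and how far. A change of at least 2-fold was called for 24 members in OE cells and 21 in EV cells, where 48.2% and 47.5% of all genes had one. The median log2 fold change of the 38 members was -0.34 in OE cells and -0.12 in EV cells, beside 0.04 and 0.06 for all genes. With both vectors 12 members were higher and 16 lower, 1 (ABCC6) was lower in EV cells alone and 4, among them ABCA12, ABCB11 and ABCG1, in OE cells alone; a call in 1 vector alone is no test of a difference between vectors, which is given further on. Because the data are relative to each library's total and come from bulk cultures, fewer cells of a kind and less RNA per cell cannot be told apart.

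**Figure D3:**
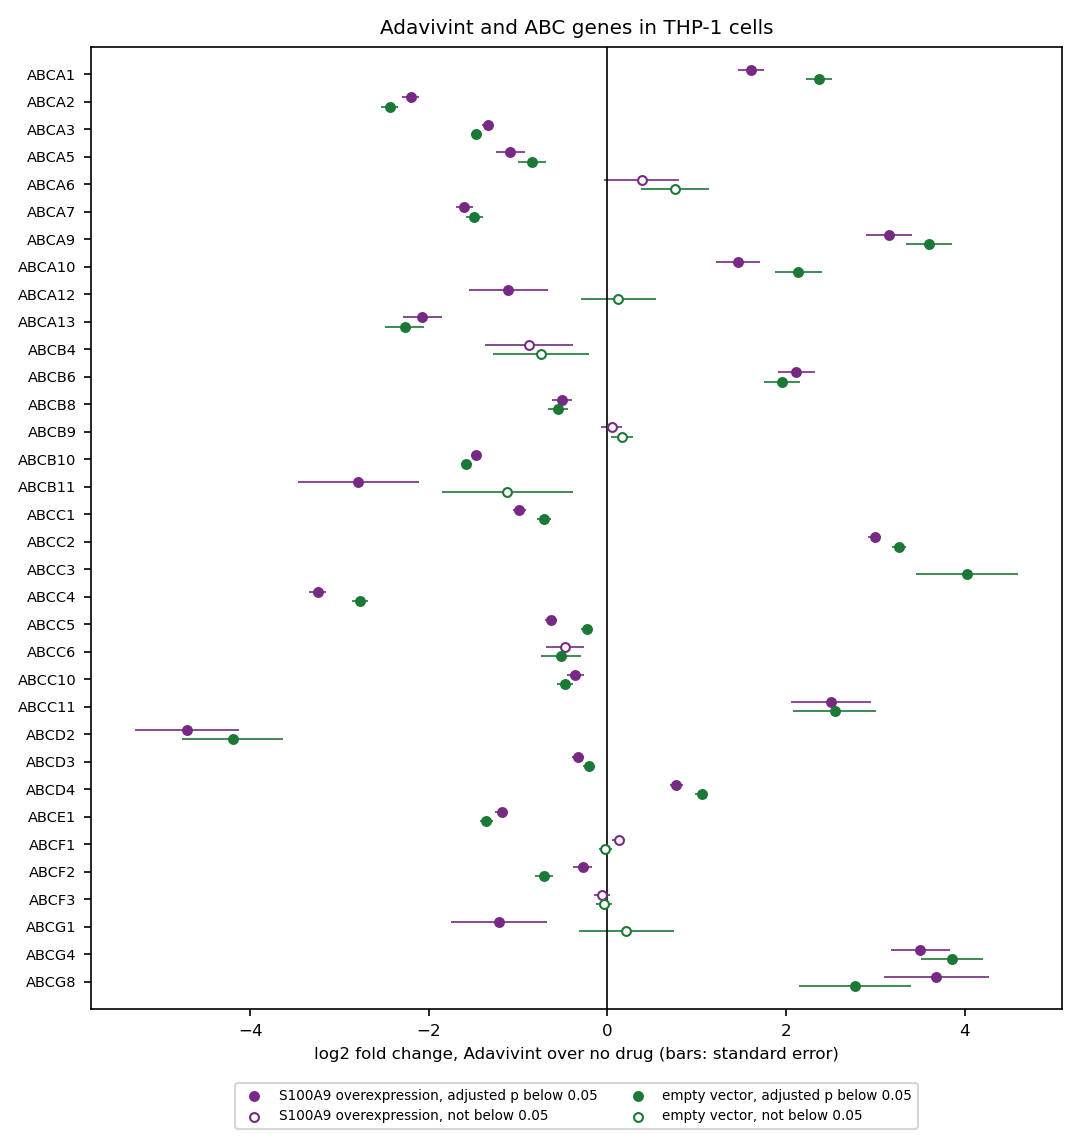
Log2 fold change, Adavivint over no drug, for tested ABC genes in S100A9-overexpressing (purple) and empty vector (green) THP-1 cells, with standard errors; filled points have an adjusted p below 0.05, and genes with 3 or fewer counts in a group are left out for that vector. ABCC2 lies at 2.99 and 3.27, ABCC4 at -3.24 and -2.77, and ABCF1, ABCF3 and ABCB9 lie close to 0.

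The promoters of 3 members are shown. ABCC2, which rose, and ABCC4, which fell, had the smallest adjusted p of the members with Adavivint in both vectors, and ABCA1 rose by an amount that differed between vectors. RefSeq (GRCh38.p14) held promoter sequence for 35 of the 45 members, in 53 promoters. Each stretch gives the 250 bases before the gene's RefSeq start, 5′ to 3′ on the gene's strand; capitals mark matches to 4 motifs searched on both strands in the 300-base windows. ABCA1 is chr9:104928156-104928405 (minus strand), ABCC2 chr10:99782390-99782639 (plus strand) and ABCC4 chr13:95301452-95301701 (minus strand); for ABCA1 and ABCC4, GENCODE 29 places the outermost gene start inside the stretch.
ABCA1: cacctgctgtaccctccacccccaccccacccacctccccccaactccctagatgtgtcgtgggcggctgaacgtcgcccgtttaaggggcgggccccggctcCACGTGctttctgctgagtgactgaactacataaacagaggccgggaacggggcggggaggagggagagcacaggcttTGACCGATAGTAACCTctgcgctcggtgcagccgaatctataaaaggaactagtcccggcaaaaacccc
ABCC2: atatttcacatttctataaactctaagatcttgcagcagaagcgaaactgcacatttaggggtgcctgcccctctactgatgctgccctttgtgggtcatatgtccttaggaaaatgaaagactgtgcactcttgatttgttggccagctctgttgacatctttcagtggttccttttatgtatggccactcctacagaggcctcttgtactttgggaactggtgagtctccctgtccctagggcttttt
ABCC4: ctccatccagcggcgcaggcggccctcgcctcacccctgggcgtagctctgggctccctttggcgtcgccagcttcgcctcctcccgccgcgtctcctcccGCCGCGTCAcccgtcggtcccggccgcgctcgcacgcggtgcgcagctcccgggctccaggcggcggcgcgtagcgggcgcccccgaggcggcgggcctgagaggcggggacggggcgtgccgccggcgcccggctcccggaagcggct

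In the ABCA1 stretch the first capitals are an E-box, CACGTG, which 7.26% of all 35116 promoters hold and 9 of the 53 member promoters. The second, 69 bases before the start, is a match on the opposite strand to the DR4 repeat, AGGTNA and NGGTCA with 4 bases of any kind between them, the direct-repeat form that LXR and RXR receptor pairs bind. The matches within a printed stretch do not overlap. The DR4 motif as written was found in 33 of all promoters, 0.094%, and among the members only in ABCA1. The half-site bases it leaves free (N) are those where the ABCA1 match departs from a repeat of AGGTCA. The motif as written thus admits the ABCA1 sequence, and its rarity is no evidence about ABCA1. The ABCC4 capitals match the antioxidant response element core TGACNNNGC on the opposite strand, found in 13.3% of all promoters and 12 of 53 member promoters. ABCC2 held none of the motifs, and CCAAT, also searched, was in 34.6% of all promoters and 12 of 53 member promoters. These matches describe letters in a window and were not tested against expression.

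Among the ABCC exporters of conjugates and drugs, ABCC2 and ABCC4 moved in opposite directions. ABCC2 (MRP2), an apical exporter of glutathione and glucuronide conjugates, had 53.4, 54.7 and 55.6 CPM in OE cells with Adavivint, against 6.58, 7.52 and 6.43 CPM in OE cells, and 55.8, 55.3 and 54.4 CPM in EV cells with Adavivint, against 5.20, 6.04 and 5.98 CPM in EV cells. All 6 treated libraries held 53.4 CPM or more and all 6 others 7.52 CPM or less. The rise was 7.95-fold in OE cells (SE 0.07 on the log2 scale, adjusted p = 2.3e-13) and 9.62-fold in EV cells (SE 0.08, adjusted p = 1.54e-13). ABCC4 (MRP4), which exports cyclic nucleotides, prostaglandins and nucleoside analogues, had 6.96, 7.65 and 7.205 CPM in OE cells with Adavivint, against 69.0, 71.1 and 66.7 CPM in OE cells, and 11.1, 10.1 and 9.13 CPM in EV cells with Adavivint, against 77.3, 65.2 and 63.6 CPM in EV cells. Its treated and untreated libraries did not overlap, and it was 9.48-fold lower in OE cells (log2 -3.24, SE 0.09, adjusted p = 6.01e-13) and 6.81-fold lower in EV cells (log2 -2.77, SE 0.09, adjusted p = 1.87e-12). Per kilobase, ABCC4 stood at 0.842 and ABCC2 at 6.96 CPM per kb in OE cells with Adavivint, against 7.98 and 0.873 CPM per kb in OE cells, so ABCC2 was the higher of the pair with the drug and ABCC4 without it.

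The remaining ABCC genes moved less or were scarce. ABCC1, the conjugate and anthracycline exporter MRP1, had 38.2, 34.5 and 39.9 CPM in OE cells with Adavivint, against 78.0, 72.5 and 72.4 CPM in OE cells, and 37.8, 44.4 and 43.8 CPM in EV cells with Adavivint, against 74.3, 64.9 and 67.2 CPM in EV cells. It was 1.98-fold lower in OE cells and 1.64-fold lower in EV cells, with no overlap (adjusted p = 1.98e-08 and 6.87e-07). ABCC5, an exporter of cyclic GMP, and ABCC10, a broad drug exporter, were lower with both vectors by 1.18- to 1.55-fold. ABCC3, ABCC11 and ABCC12 were higher with both vectors yet stayed at or under 1.078 CPM in every treated library. ABCC3, an exporter of bile acids and glucuronides, had 77 counts in OE cells with Adavivint and 2 in OE cells, a ratio of 63.9 (95% exact interval 17.1 to 537), and 72 counts in EV cells with Adavivint, against 5 in EV cells. Both counts of the OE cells were in replicate 3, so that without this library none remained. ABCC12 had 31 counts in OE cells with Adavivint and none in OE cells, at least 17.2-fold higher against a floor of 3 counts over the group. ABCC11 and ABCC12, neighbours on chromosome 16 (GENCODE 29, GRCh38), both rose, the first by 5.67-fold in OE cells and 5.84-fold in EV cells. ABCC6, which has pseudogene copies that could share its reads, was 1.43-fold lower in EV cells (adjusted p = 0.0454), a call kept in 2 of 6 fits that left out 1 library and lost under 4 other settings, DESeq2 among them (adjusted p = 0.0528 to 0.116).

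Lipid transporters of the ABCA and ABCG subfamilies also went both ways. ABCA1, which loads cholesterol onto apolipoprotein A-I, had 91.8, 87.5 and 83.1 CPM in OE cells with Adavivint, against 28.2, 28.9 and 29.01 CPM in OE cells, and 128, 132 and 131 CPM in EV cells with Adavivint, against 18.0, 25.1 and 32.6 CPM in EV cells. It was 3.05-fold higher in OE cells (log2 1.61, SE 0.14, adjusted p = 7.75e-08) and 5.17-fold higher in EV cells (log2 2.37, SE 0.14, adjusted p = 1.43e-09), with the lowest treated library well above the highest untreated one. ABCG1, its partner in efflux to HDL, had 0.560, 0.182 and 0.523 CPM in OE cells with Adavivint, against 1.05, 0.767 and 1.14 CPM in OE cells, and 0.736, 0.534 and 0.770 CPM in EV cells with Adavivint, against 0.117, 0.834 and 0.833 CPM in EV cells. The ABCG1 libraries of EV cells overlapped, and in OE cells it was called 2.31-fold lower at adjusted p = 0.0492, a call kept in 1 of 6 fits that left out a library and lost with the replicate block (adjusted p = 0.0573) and with DESeq2 size factors (adjusted p = 0.0616). ABCG4, a sterol transporter known from brain, had 1.41, 1.48 and 1.20 CPM in OE cells with Adavivint, against 0.156, 0.0708 and 0.143 CPM in OE cells, and 0.974, 1.47 and 1.69 CPM in EV cells with Adavivint, against 0.0833, 0.0993 and 0.0968 CPM in EV cells. ABCG5 and ABCG8, which form the sterol exporter of gut and liver, overlap on opposite strands over 6924 bp of chromosome 2, so their reads may be shared. ABCG8 had 1.15, 1.30 and 1.32 CPM in OE cells with Adavivint, against 0.0778, 0.0826 and 0.127 CPM in OE cells, and 0.380, 0.534 and 1.03 CPM in EV cells with Adavivint, against 0.0666, 0.218 and 0 CPM in EV cells. ABCG5 had 24 counts in OE cells with Adavivint and none in OE cells, at least 13.3-fold higher, and 26 counts in EV cells with Adavivint and 3 in EV cells, a ratio of 10.6 (95% exact interval 3.25 to 54.7). All 3 of those EV counts of ABCG5 were in replicate 3, so that without this library none remained. ABCG4 was 11.3- and 14.5-fold higher and ABCG8 12.8- and 6.84-fold higher in OE and EV cells. Without EV replicate 2 the ABCG8 log2 fold change in EV cells was 4.11 in place of 2.77.

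The other abundant ABCA genes were lower. ABCA2, an endolysosomal transporter involved in sterol traffic, had 8.21, 8.25 and 7.68 CPM in OE cells with Adavivint, against 39.6, 35.4 and 36.0 CPM in OE cells, and 6.63, 8.21 and 6.29 CPM in EV cells with Adavivint, against 37.0, 36.9 and 40.5 CPM in EV cells. That is 4.598-fold lower in OE cells (adjusted p = 2.86e-11) and 5.41-fold lower in EV cells (adjusted p = 1.21e-11), and no treated library exceeded 8.25 CPM. ABCA3, the phospholipid transporter of lamellar bodies and of leukaemic lysosomes, had 13.7, 14.6 and 15.1 CPM in OE cells with Adavivint, against 38.4, 35.8 and 35.9 CPM in OE cells, and 13.9, 14.9 and 15.3 CPM in EV cells with Adavivint, against 41.9, 40.4 and 40.2 CPM in EV cells. ABCA7, a phospholipid transporter linked to phagocytosis, had 14.8, 12.9 and 14.1 CPM in OE cells with Adavivint, against 44.5, 42.0 and 40.2 CPM in OE cells, and 13.5, 15.1 and 14.3 CPM in EV cells with Adavivint, against 33.8, 42.2 and 44.8 CPM in EV cells. ABCA3 and ABCA7 were lower by 2.53- to 3.03-fold with both vectors and no libraries overlapped. ABCA13, the longest member by exon length, had 1.20, 0.908 and 1.30 CPM in OE cells with Adavivint, against 4.48, 5.05 and 4.83 CPM in OE cells, and 1.496, 0.913 and 0.748 CPM in EV cells with Adavivint, against 5.51, 4.69 and 5.00 CPM in EV cells, and was 4.21- and 4.82-fold lower in OE and EV cells. ABCA12, the keratinocyte lipid transporter, stayed at or under 0.272 CPM; its call in OE cells (adjusted p = 0.0315) was lost with DESeq2 (adjusted p = 0.135), with the replicate block (adjusted p = 0.0539) and without replicate 1 or 2 of OE with Adavivint (adjusted p = 0.0923 and 0.0996).

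ABCA8, ABCA9, ABCA6, ABCA10 and ABCA5 lie side by side on the minus strand of chromosome 17, between 68867292 and 69327244 (GENCODE 29, GRCh38), and did not move as a block. ABCA9 had 1.23, 1.32 and 1.23 CPM in OE cells with Adavivint, against 0.136, 0.165 and 0.111 CPM in OE cells, and 1.45, 1.87 and 1.47 CPM in EV cells with Adavivint, against 0.133, 0.139 and 0.116 CPM in EV cells. ABCA10 had 1.81, 2.31 and 1.84 CPM in OE cells with Adavivint, against 0.740, 0.684 and 0.744 CPM in OE cells, and 1.90, 2.03 and 1.96 CPM in EV cells with Adavivint, against 0.433, 0.258 and 0.639 CPM in EV cells. ABCA5, at the far end, had 3.15, 3.04 and 3.39 CPM in OE cells with Adavivint, against 6.27, 6.75 and 7.30 CPM in OE cells, and 3.54, 2.54 and 2.93 CPM in EV cells with Adavivint, against 4.26, 5.72 and 6.20 CPM in EV cells. ABCA9 was 8.90- and 12.1-fold higher and ABCA10 2.75- and 4.40-fold higher in OE and EV cells, whereas ABCA5 was 2.12- and 1.80-fold lower (adjusted p = 2.02e-05 and 0.000223). ABCA6 did not pass (adjusted p = 0.401 and 0.0778) and ABCA8 was not tested. ABCA10 and ABCA5 share 536 bp on the same strand, and an antisense gene covers much of ABCA9, so their counts are less certain than those of isolated genes.

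The sterol regulators and LXR targets that accompany ABCA1 were mixed: of 14 listed genes, 6 were higher and 7 lower with Adavivint in OE cells, and 7 higher and 6 lower in EV cells. Their median log2 fold changes were -0.0023 and 0.16, beside 0.04 and 0.06 over all genes. The shares of all genes were 43.4% higher and 41.3% lower in OE cells, and 44.2% and 41.1% in EV cells. NR1H3 (LXR alpha) averaged 12.1 CPM in OE cells with Adavivint and 2.94 CPM in OE cells, and 12.8 CPM in EV cells with Adavivint and 3.27 CPM in EV cells. NR1H2 (LXR beta) was 2.88- and 2.35-fold higher in OE and EV cells, and APOE, an apolipoprotein and LXR target, 10.5- and 18.2-fold higher. LPCAT3, a phospholipid-remodelling enzyme and also an LXR target, fell by 2.52- and 2.36-fold.

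Partners of the ABCC exporters, the enzymes that make and conjugate glutathione or leukotriene C4, were lower: 15 of 15 in OE cells and 13 of 15 in EV cells, with none higher, against 41.3% and 41.1% of all genes lower. The median log2 fold changes were -1.08 and -1.55, beside 0.04 and 0.06 for all genes. The list was chosen with earlier results of these data known, so its contrast with all genes is not a test. GSS, glutathione synthetase, averaged 11.4 CPM in OE cells with Adavivint and 56.0 CPM in OE cells, and 10.7 CPM in EV cells with Adavivint and 54.1 CPM in EV cells. GSTP1, a glutathione transferase, was 4.599- and 4.71-fold lower in OE and EV cells and MGST1, a microsomal one, 5.37- and 6.23-fold lower. Across the same libraries ABCC2 was higher while ABCC1 and ABCC4 were lower. Of 15 regulators of efflux genes, 7 were higher and 7 lower in OE cells and 6 higher and 5 lower in EV cells. Of all genes, 43.4% were higher and 41.3% lower in OE cells, and 44.2% and 41.1% in EV cells. NFE2L2 (NRF2), which drives antioxidant genes, was 2.32- and 2.30-fold higher in OE and EV cells, and NR1I3 (CAR), a xenobiotic receptor, 9.70- and 7.50-fold higher. Moesin (MSN), which tethers efflux pumps to actin, was 2.27- and 2.71-fold lower.

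Of the mitochondrial ABCB genes, ABCB10 fell most. It had 48.6, 55.1 and 52.9 CPM in OE cells with Adavivint, against 132, 149 and 153 CPM in OE cells, and 59.0, 58.5 and 57.4 CPM in EV cells with Adavivint, against 178, 173 and 171 CPM in EV cells. It was 2.77-fold lower in OE cells (adjusted p = 1.95e-11) and 2.99-fold lower in EV cells (adjusted p = 1.01e-11), with no library of either kind near the other; 3 pseudogenes carry its name. ABCB6, a porphyrin transporter, had 6.08, 7.71 and 6.77 CPM in OE cells with Adavivint, against 1.79, 1.62 and 1.35 CPM in OE cells, and 6.94, 7.84 and 9.55 CPM in EV cells with Adavivint, against 1.77, 1.67 and 2.85 CPM in EV cells. It was 4.33- and 3.88-fold higher, and its reads are uncertain because another annotated gene spans it on the same strand. ABCB8, a mitochondrial protein tied to iron export and to an ATP-sensitive potassium channel, was 1.42- and 1.47-fold lower. Of 13 partner genes of haem and iron-sulfur synthesis, 3 were higher and 9 lower with each vector, with medians of -0.64 in OE and -0.55 in EV cells. Over all genes, 43.4% were higher and 41.3% lower in OE cells, and 44.2% and 41.1% in EV cells. SLC25A37 (mitoferrin), which brings iron to ferrochelatase beside ABCB10, averaged 45.3 CPM in OE cells with Adavivint and 271 CPM in OE cells, and 49.2 CPM in EV cells with Adavivint and 248 CPM in EV cells.

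ABCB9, a lysosomal peptide transporter related to TAP, had 5.07, 5.50 and 4.32 CPM in OE cells with Adavivint, against 4.90, 4.79 and 4.70 CPM in OE cells, and 5.53, 5.03 and 4.71 CPM in EV cells with Adavivint, against 4.48, 4.83 and 4.32 CPM in EV cells, and the groups overlapped. Its log2 difference was 0.05 (SE 0.12) in OE and 0.16 (SE 0.12) in EV cells, neither called. TAP1 and TAP2, by comparison, were lower: TAP2 averaged 18.4 CPM in OE cells with Adavivint and 115 CPM in OE cells, and 19.2 CPM in EV cells with Adavivint and 128 CPM in EV cells. Another annotated gene spans TAP2 on the same strand, and PSMB9 spans TAP1 on the opposite strand, so some of their reads may be shared. Of 8 other peptide-loading genes, 1 was higher and 6 lower in OE cells and 1 higher and 7 lower in EV cells. The higher one was B2M, the light chain of MHC class I, at 2.26- and 1.94-fold. The shares of all genes were 43.4% higher and 41.3% lower in OE cells, and 44.2% and 41.1% in EV cells. ABCB4, the phosphatidylcholine floppase of bile, and ABCB11, the bile salt export pump, stayed at or under 0.566 CPM; ABCB11 was called lower in OE cells alone, with 6 counts with the drug and 71 without.

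In the ABCD subfamily, the peroxisomal importers ABCD2 and ABCD3 fell and the lysosomal ABCD4 rose. ABCD2, which imports very long-chain fatty acyl-CoA, had 0.107, 0 and 0.114 CPM in OE cells with Adavivint, against 2.12, 1.89 and 2.03 CPM in OE cells, and 0.0950, 0.156 and 0 CPM in EV cells with Adavivint, against 1.07, 1.69 and 1.96 CPM in EV cells. ABCD2 was 26.1- and 18.3-fold lower in OE and EV cells, while ABCD3, the branched-chain and dicarboxylic acyl-CoA importer, was 1.26- and 1.15-fold lower (adjusted p = 0.000668 and 0.015). The log2 fold change of ABCD2 in EV cells was -4.20, and -5.03 without replicate 2 of EV with Adavivint. ABCD4, which moves cobalamin out of lysosomes, had 47.0, 46.3 and 46.8 CPM in OE cells with Adavivint, against 28.8, 26.3 and 26.9 CPM in OE cells, and 50.03, 49.3 and 49.9 CPM in EV cells with Adavivint, against 21.3, 24.1 and 26.4 CPM in EV cells. It was 1.71-fold higher in OE cells (adjusted p = 1.03e-07) and 2.08-fold higher in EV cells (adjusted p = 3.77e-09). Another annotated gene shares 5299 bp of the ABCD4 span on the same strand, so some of its reads may be shared. Of 12 peroxisomal beta-oxidation partners, 3 were higher and 7 lower in OE cells and 5 higher and 7 lower in EV cells. The background over all genes was 43.4% higher and 41.3% lower in OE cells, and 44.2% and 41.1% in EV cells. SLC27A2, a very long-chain acyl-CoA synthetase, was 7.72- and 5.97-fold lower.

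ABCE1 was the only one of the 4 soluble ribosome-bound members to fall by 2-fold or more. It had 99.8, 99.1 and 101 CPM in OE cells with Adavivint, against 206, 232 and 242 CPM in OE cells, and 96.5, 90.7 and 91.6 CPM in EV cells with Adavivint, against 263, 232 and 219 CPM in EV cells, so that no treated library exceeded 101 CPM and every untreated one held 206 CPM or more. It was 2.27-fold lower in OE cells (SE 0.07 on the log2 scale, adjusted p = 9.79e-10) and 2.56-fold lower in EV cells (SE 0.07, adjusted p = 2.44e-10). The span of ABCE1 shares 18342 bp with OTUD4 on the opposite strand, so some of its reads may be shared. ABCF1, which binds initiation factor eIF2 and ribosomes, had 168, 156 and 164 CPM in OE cells with Adavivint, against 152, 148 and 147 CPM in OE cells, and 159, 176 and 170.4 CPM in EV cells with Adavivint, against 192, 172 and 150.3 CPM in EV cells. Its log2 difference was 0.13 (SE 0.07) in OE and -0.02 (SE 0.07) in EV cells, neither called; in OE cells it was called higher with DESeq2 size factors (log2 0.19, adjusted p = 0.0236). ABCF3, a cofactor of antiviral defence in mouse, had 36.8, 31.3 and 33.6 CPM in OE cells with Adavivint, against 37.7, 35.0 and 33.4 CPM in OE cells, and 34.9, 38.1 and 38.3 CPM in EV cells with Adavivint, against 43.2, 37.3 and 33.8 CPM in EV cells, and was called with neither vector. ABCF2 had 91.5, 92.4 and 89.3 CPM in OE cells with Adavivint, against 115, 109 and 108 CPM in OE cells, and 85.8, 86.4 and 81.2 CPM in EV cells with Adavivint, against 170.2, 128 and 115 CPM in EV cells. It was 1.21-fold lower in OE cells (adjusted p = 0.0218, lost with DESeq2 size factors at adjusted p = 0.063 and when OE replicate 1 or OE with Adavivint replicate 3 was left out) and 1.63-fold lower in EV cells (adjusted p = 1.8e-05). ABCF2 lies on the same strand and over the same stretch as the read-through gene ABCF2-H2BK1, so the split of reads between them is uncertain. Among 12 recycling and translation partners, EIF3J, which works with ABCE1 in ribosome splitting, was 3.23- and 3.13-fold lower in OE and EV cells. Of those 12 partners, 4 were higher and 6 lower in OE cells and 3 higher and 7 lower in EV cells. Over all genes, 43.4% were higher and 41.3% lower in OE cells, and 44.2% and 41.1% in EV cells.

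**Figure D4:**
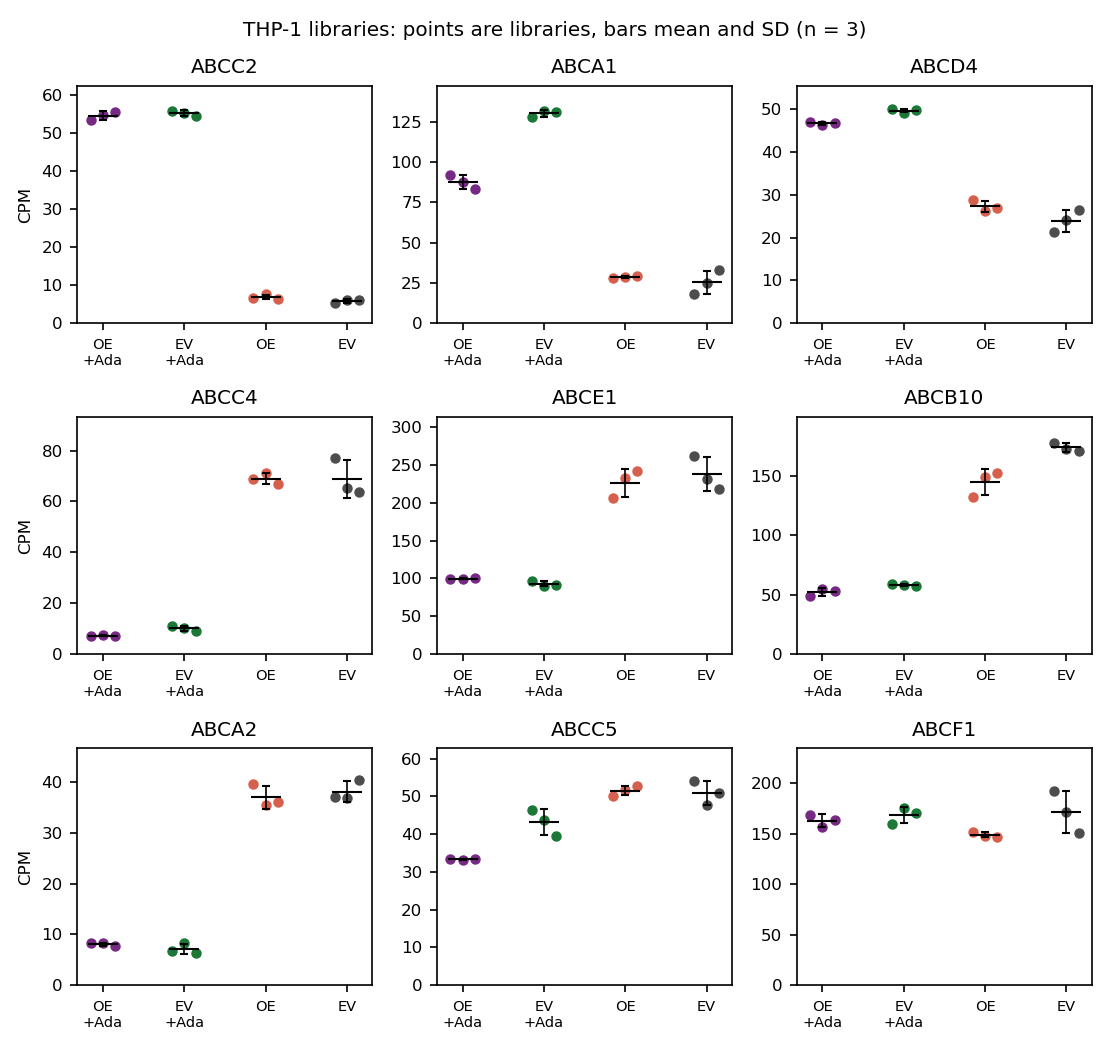
Level in CPM of 9 ABC genes in each THP-1 library, from S100A9-overexpressing (OE) and empty vector (EV) cells with and without Adavivint (Ada); points are libraries, bars the mean and SD of 3. ABCC2, ABCA1 and ABCD4 are higher with the drug in all 6 treated libraries, ABCC4, ABCE1, ABCB10 and ABCA2 lower, and ABCF1 overlaps between EV with and without the drug.

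Whether the drug's effect differed between vectors was tested directly, as the interaction term of the 12-library fit. It was called for 4 members, all with a negative sign, of 38, and for none with a positive sign (19.3% of all genes were called, 8.04% positive and 11.2% negative). For ABCA1 the rise with Adavivint was smaller in OE than in EV cells (interaction log2 -0.76, SE 0.20, adjusted p = 0.0174): untreated OE and EV cells overlapped, whereas with the drug the highest OE library, 91.8 CPM, lay under the lowest EV library, 128 CPM. For ABCC4 the fall was larger in OE cells (log2 -0.48, SE 0.12, adjusted p = 0.0172), and so it was for ABCC5 (log2 -0.40, SE 0.09, adjusted p = 0.0103). ABCC5 had 33.4, 33.1 and 33.4 CPM in OE cells with Adavivint, against 50.2, 51.7 and 52.7 CPM in OE cells, and 46.5, 43.8 and 39.6 CPM in EV cells with Adavivint, against 54.0, 47.7 and 50.9 CPM in EV cells. The calls of ABCA1, ABCC4 and ABCC5 were kept in 12 of 12 fits that left out 1 library. At an adjusted p below 0.01 none of the 4 was called.

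With Adavivint in both groups, OE cells differed from EV cells in 3 members, all lower, of 38, and none was higher (8.50% of all genes were called, 3.69% higher and 4.80% lower). They were ABCA1 (log2 -0.57, SE 0.14, adjusted p = 0.0212), ABCC4 (log2 -0.47, SE 0.09, adjusted p = 0.00905) and ABCC5 (log2 -0.38, SE 0.07, adjusted p = 0.00432). The ABCA1 call was kept in 1 of 6 fits that left out a library, with log2 values between -0.61 and -0.54. This comparison and the interaction share the treated libraries, so they are not separate evidence. Scaling by library totals gave 6 lower members here, and moved the calls over all genes to 393 higher and 1555 lower, against 569 and 740 with TMM.

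Without the drug, S100A9 overexpression changed few members and none by as much as 2-fold: 2 were higher and 3 lower of 38 (28.0% of all genes were called, 14.9% higher and 13.0% lower). Of the higher ones, ABCC2 was 1.20-fold higher in OE cells (adjusted p = 0.0233). ABCB10 was 1.20-fold lower (adjusted p = 0.00498), with the 3 OE libraries under the 3 EV libraries. ABCC10 had 13.9, 12.3 and 11.3 CPM in OE cells, against 17.3, 15.6 and 16.3 CPM in EV cells, and was 1.31-fold lower (adjusted p = 0.0069). ABCF2 was 1.25-fold lower (adjusted p = 0.032), beside an ABCF2-H2BK1 level of 4.38, 5.12 and 3.60 CPM in OE cells and 1.07, 1.65 and 1.65 CPM in EV cells, 3.02-fold higher (adjusted p = 0.00171); the call for ABCF2 was lost in 3 of 6 fits that left out 1 library and that for ABCC2 in 2. The number of higher members was 1 without EV replicate 1 or OE replicate 2 and 5 without EV replicate 3. In the same order of fits, 1789, 1448 and 2530 of all genes were higher, against 2297 with all libraries. ABCC4, ABCE1, ABCA1 and ABCC1 did not pass, with log2 differences of 0.00 (SE 0.08), -0.07 (SE 0.07), 0.19 (SE 0.14) and 0.11 (SE 0.07). The untreated EV libraries are shared by this comparison, by the drug comparison in EV cells and by the interaction.

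In U937, knockdown of S100A9 was followed by no call among the 25 members tested (edgeR), where 1.77% of all genes were called, 0.230% higher and 1.54% lower. Unadjusted p was under 0.05 for 5 members, and DESeq2 called 1, ABCC10, lower (log2 -0.67, adjusted p = 0.00479). Over all 13016 genes, 1857 had an unadjusted p under 0.05, and DESeq2 called 272 higher and 607 lower. ABCC10 had 10.5, 11.8 and 9.77 CPM in shS100A9 cells, against 17.9, 14.1 and 19.0 CPM in EV cells, without overlap (log2 fold change -0.67, SE 0.16, adjusted p = 0.114, edgeR). ABCC1 had 104, 107 and 91.0 CPM in shS100A9 cells, against 85.8, 80.1 and 79.3 CPM in EV cells, again without overlap (log2 fold change 0.30, SE 0.10, adjusted p = 0.241). The libraries that stood apart were often the extreme ones. ABCF2 had 94.6, 103 and 52.0 CPM in shS100A9 cells, against 142, 61.1 and 138 CPM in EV cells, and ABCA7 had 33.5, 34.7 and 57.6 CPM in shS100A9 cells, against 29.4, 50.6 and 29.05 CPM in EV cells. shS100A9 replicate 3 and EV replicate 2 were the lowest of their groups for ABCF2 and the highest for ABCA7, so they deviated in the same direction. ABCE1 had 276, 266 and 229.7 CPM in shS100A9 cells, against 307, 199.7 and 308 CPM in EV cells, and ABCC4 had 77.0, 74.3 and 71.0 CPM in shS100A9 cells, against 90.4, 54.6 and 90.5 CPM in EV cells. In both genes EV replicate 2 was the lowest of the 6 libraries.

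Without those 2 libraries, which leaves 2 against 2, 6 members were called higher and 8 lower of 25 (edgeR). The lower ones included ABCC10 (log2 -0.72, adjusted p = 0.000897), ABCA2 (log2 -0.53, adjusted p = 0.00659) and ABCF2 (log2 -0.50, adjusted p = 0.00058), followed by ABCC4, ABCB10, ABCE1 and ABCD3 at log2 -0.26 to -0.16. The higher ones included ABCG1 (log2 1.62, adjusted p = 0.0457), ABCA13 (log2 0.71, adjusted p = 0.000792), ABCC1 (log2 0.36, adjusted p = 0.00274), ABCD4 (log2 0.29, adjusted p = 0.0184) and ABCA7 (log2 0.22, adjusted p = 0.023). In that fit 4296 of 13055 genes were called, 1988 higher and 2308 lower, which is the background for the members' calls. Without EV replicate 2 alone, 2 members were called, both lower, ABCC10 among them, beside 362 of 13218 genes, 107 higher and 255 lower. Among the remaining members, ABCA3 had 34.0, 36.6 and 35.5 CPM in shS100A9 cells, against 33.1, 30.0 and 31.4 CPM in EV cells, without overlap but with a log2 difference of 0.17 (SE 0.10) that was not called. ABCF1 had 195, 208 and 139 CPM in shS100A9 cells, against 224, 173 and 223 CPM in EV cells, and ABCF3 36.9, 38.5 and 30.3 CPM in shS100A9 cells, against 37.7, 25.6 and 37.9 CPM in EV cells. ABCA1 had 0.322, 0.385 and 0.881 CPM in shS100A9 cells, against 0.365, 0.214 and 0.311 CPM in EV cells, and ABCG1 0.448, 0.446 and 0.226 CPM in shS100A9 cells, against 0.0729, 0.194 and 0.208 CPM in EV cells. The groups overlapped for ABCF1, ABCF3 and ABCA1 and not for ABCG1, and ABCA1 and ABCG1 stayed under 1 CPM in every U937 library.

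**Figure D5:**
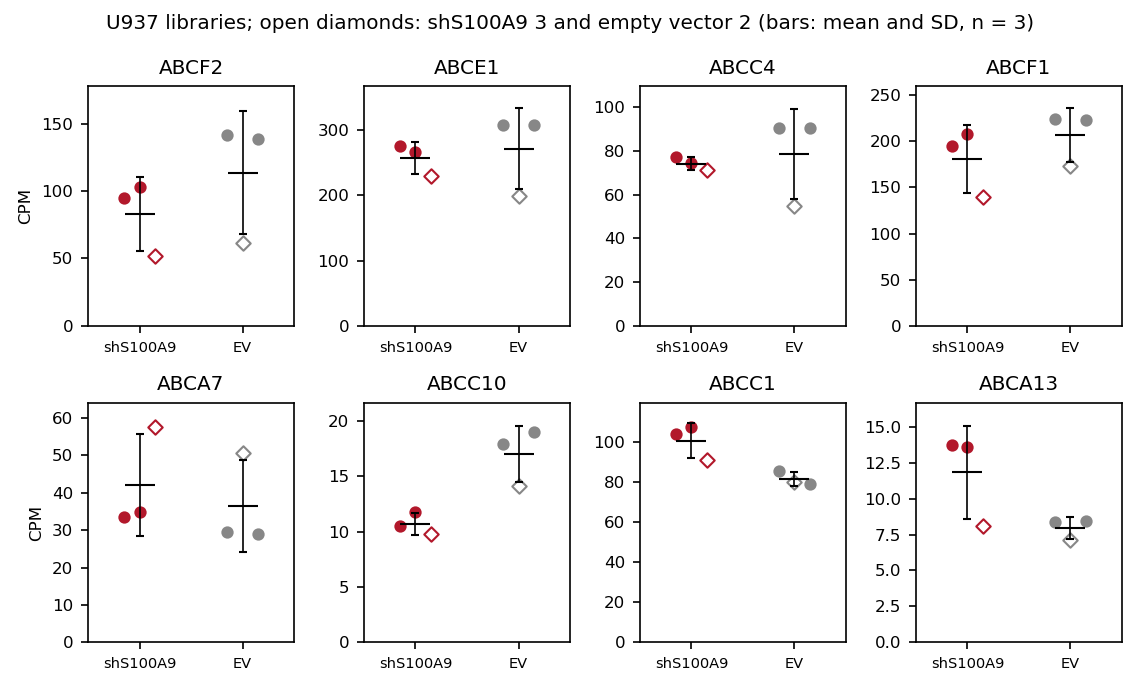
Level in CPM of 8 ABC genes in each U937 library, shS100A9 to the left of empty vector (EV); open diamonds are shS100A9 replicate 3 and EV replicate 2, bars the mean and SD of 3. For ABCF2 and ABCA7 the open diamonds lie on the same side of the filled points in both groups, and for ABCC10 and ABCC1 the groups do not overlap.

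Between U937 EV and THP-1 EV cells, 3 members were higher and 11 lower in U937 of 29 tested (26.2% of all genes were called, 11.4% higher and 14.8% lower). The cell line and anything else that differed between the cultures cannot be told apart, and the levels below are scaled over these 6 libraries. Of the 8 ABCA genes tested, 6 were among the 11 lower members and 1 was higher. ABCA1 had 0.364, 0.214 and 0.311 CPM in U937 EV cells, against 17.8, 25.4 and 33.4 CPM in THP-1 EV cells, 86.4-fold lower (log2 -6.43, SE 0.33, adjusted p = 6.65e-05). ABCA5 had no counts in U937 EV cells, against 4.23, 5.79 and 6.33 CPM in THP-1 EV cells (864 counts), at least 252-fold lower against a floor of 3 counts over the group; shS100A9 cells had none either. ABCA6 and ABCB4 were also at 0 in U937 EV cells, at least 19.0- and 15.2-fold lower. ABCA2 had 12.3, 8.27 and 12.3 CPM in U937 EV cells, against 36.7, 37.4 and 41.4 CPM in THP-1 EV cells, 3.50-fold lower (adjusted p = 0.000429). ABCD2 had 0.194, 0.272 and 0.0830 CPM in U937 EV cells, against 1.06, 1.71 and 2.00 CPM in THP-1 EV cells, and ABCC6 0.0972, 0.0971 and 0.166 CPM in U937 EV cells, against 1.01, 0.905 and 1.25 CPM in THP-1 EV cells, 8.52- and 8.58-fold lower. ABCA3, ABCB8 and ABCB10 were lower by 1.31- to 1.46-fold, and ABCA10 by 14.3-fold with 4 counts in U937 EV cells, all in replicate 1, so that without this library no count remained in U937 EV cells.

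Among the 3 higher members, ABCC2 had 8.19, 11.0 and 8.34 CPM in U937 EV cells, against 5.15, 6.11 and 6.12 CPM in THP-1 EV cells, and ABCA13 had 8.33, 7.11 and 8.42 CPM in U937 EV cells, against 5.46, 4.75 and 5.11 CPM in THP-1 EV cells. They were 1.59- and 1.56-fold higher, with adjusted p = 0.0269 and 0.016; these calls were kept in 3 and 2 of 6 fits that left out 1 library, those of ABCB8, ABCA10 and ABCA3 in 4, 3 and 5, and the rest in all 6. Without U937 EV replicate 2, one of the libraries that stood apart, 8 members were higher and 12 lower. Over all genes, 6111 of 13909 were called in that fit, 2746 higher and 3365 lower, against 3583 of 13695 with all libraries. ABCC1, ABCC4, ABCE1 and ABCF1 were among the members that joined the higher ones (log2 0.24 to 0.38), and ABCA7 joined the lower ones (log2 -0.48, adjusted p = 0.0189). Without THP-1 EV replicate 2 or 3, 1 member was higher, beside 773 and 918 higher over all genes. ABCF2, ABCF3, ABCC5, ABCC10, ABCD3, ABCD4 and ABCB9 were called in neither fit.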

How the data were processed

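Raw read counts per gene were deposited by the authors as 1 table for the 18 libraries. Reads were aligned with HISAT2 2.0.4, per the submitters' processing notes, while no label, note or file header used here names the read counter, genome build, annotation or strand setting. Symbols, exon-union lengths and positions came from GENCODE 29 (GRCh38), in which all 45 members were found, and promoters from RefSeq (GRCh38.p14). The members and partner lists were chosen with earlier results of these data known. Some genes are counted in the totals and sums but are not reported here one by one.

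Counts were scaled by TMM, filtered with filterByExpr at its defaults and tested with edgeR 4.0.16 (quasi-likelihood F-test, limma 3.58.1, R 4.3.3), with Benjamini-Hochberg adjustment over all genes of a fit and a threshold of 0.05. Fits held 6 U937 libraries (13016 genes), 12 THP-1 libraries (15403 genes) and the 6 empty vector libraries of both lines (13695 genes). CPM values were scaled within each line, or over the 6 libraries for the comparison of lines. The code was tested on simulated data. Library totals of 38.4 to 84.4 M (mega) counts make 3 counts over a group equal to between 0.0146 and 0.0250 CPM, and intervals and floors cover counting error only.

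Values per library are given for members that passed with at least a 2-fold change and 1 CPM in the higher group. They are also given for ABCC1, ABCC4, ABCA1, ABCG1, ABCA3, ABCE1 and ABCF1 to ABCF3, and for ABCB1 in THP-1 cells. ABCG2 is given as counts over a group, and S100A9 as group means. ABCB1 in U937 cells is given as counts over a group, with library values for EV cells. Otherwise library values are given for members whose groups or libraries the text singles out, chosen after their values were seen. Of each partner list, up to 3 genes with the smallest p were eligible to be named. The sterol and LXR list went beyond that, with NR1H3, NR1H2, APOE and LPCAT3 named. Alternatives were DESeq2 1.42.0 as test and as size factors, library totals, no filter on low counts, the replicate number as a block, fits of only the groups compared, a threshold of 0.01, each library left out, and both U937 libraries that stood apart left out.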

Additional observations from a re-analysis of the deposited data

Results flagged for a closer look

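The effect of Adavivint differed between S100A9-overexpressing and empty vector THP-1 cells, by the interaction test over all genes (edgeR), for 4 members. The log2 effect in overexpressing minus that in empty vector cells was -0.76 for ABCA1 (3.05-fold higher with the drug in overexpressing cells, 5.17-fold in empty vector cells). It was -0.48 for ABCC4 (9.48- and 6.81-fold lower) and -0.40 for ABCC5 (1.55- and 1.18-fold lower). Adjusted p-values of these 3 were between 0.0103 and 0.0174. S100A9 itself averaged 107 CPM in overexpressing and 13.9 CPM in empty vector cells with the drug, and 28.1 and 6.38 CPM without it. Its part in these differences was not tested.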

How the results depend on the processing

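The 130 member values followed were the 87 called ones and the uncalled ones of ABCC1, ABCC4, ABCA1, ABCG1, ABCA3, ABCE1 and ABCF1 to ABCF3. Over their 1585 refits, 1503 stayed on the same side of the threshold, 53 lost a call and 29 gained one. Uncalled values of other members were not followed here, so gained calls are undercounted. The sign changed in 33 refits, none with a call in either fit. Of 87 called values, 74 kept the call under every alternative run. In U937 knockdown, lower members numbered 1 with DESeq2, and 6 higher and 8 lower without both libraries that stood apart. For overexpression without drug, DESeq2 gave 6 lower, beside 2485 lower over all genes, against 2010 with edgeR. Library totals gave 6 lower for overexpression under Adavivint and 7 lower for the interaction, where they moved the calls over all genes to 961 higher and 2379 lower, against 1239 and 1729 with TMM. For the interaction, DESeq2 size factors, DESeq2 and the replicate block each gave 1 higher member, ABCF2 (log2 0.45, 0.45 and 0.42), and a threshold of 0.01 left 0 lower. The cause of these shifts was not tested. Leaving out 1 library gave 0 higher and 0 to 2 lower in U937 knockdown, 1 to 5 higher and 2 to 4 lower for overexpression, 12 higher and 16 to 18 lower for the drug in empty vector cells, 12 to 13 higher and 17 to 19 lower in overexpressing cells, 0 higher and 2 to 3 lower for overexpression under the drug, 0 to 2 higher and 3 to 6 lower for the interaction, and 1 to 8 higher and 9 to 12 lower between lines. Fitting only the compared groups, overexpression lost ABCC2 (adjusted p = 0.16) and ABCF2 (adjusted p = 0.0693). Same-numbered libraries did not pair: deviation correlations ran between -0.520 and 0.308. With the replicate block, calls over all genes in U937 knockdown numbered 3, against 231. Members near 0.1 CPM or under rest on few counts.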
